A study of Mus musculus with 6 samples.

Results

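The genes described here are 32 genes of fatty acid and glycerolipid synthesis, taken by name from a table of 27179 genes, and each of the 32 was matched to a row of that table. They were followed in 6 RNA libraries of spleen cell cultures from gBT-I mice, a transgenic line whose CD8+ T cells recognise a glycoprotein B peptide of herpes simplex virus. In both groups, total spleen cells were activated with that peptide and lipopolysaccharide (LPS) and given IL-2 on days 2 to 5, and all cultures were harvested on day 6. Butyrate, a short-chain fatty acid made by gut bacteria and an inhibitor of histone deacetylases, was present from day 3 in 3 cultures, and for the 3 control cultures the labels name no further agent. The mice were kept specific pathogen free. The labels call the harvested cells CD8+ T cells and name no sort, and they give no age, no dose of butyrate and no word on whether replicates came from separate mice or cultures.

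Cells build fatty acids from acetyl-CoA, which ATP citrate lyase makes from citrate in the cytosol and acetyl-CoA carboxylase turns into malonyl-CoA for fatty acid synthase. Desaturases and elongases then reshape the chain, and acyltransferases place chains on glycerol to give phosphatidic acid, the source of both membrane phospholipids and triacylglycerol. Many genes of the first steps are targets of SREBP-1, a membrane-bound transcription factor, and T cells that enter division raise this programme to make new membrane.

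Of 15 tested genes that make, desaturate or lengthen fatty acids, 9 were lower with butyrate and 1 was higher, while of 10 tested genes of glycerolipid acylation 4 were higher and 1 was lower. Of the 32 genes, 29 passed the filter on low counts, and 11 of them were lower and 6 higher with butyrate (edgeR adjusted p under 0.05). Of all 11740 tested genes 45.9% were called, 23.5% higher and 22.5% lower, so the share of lipid genes called higher (20.7%) was near that of all genes, while the share called lower (37.9%) was above it. The groups did not overlap for 19 of the 29, against 57.1% of all tested genes, with butyrate below control for 12 (all tested genes 28.2%) and above it for 7 (28.9%). Of all calls 51.1% were higher, a share that became 61.8% with upper quartile scaling, under which 10 of the lipid genes were lower and 7 higher. The median log2 fold change of the 29 was -0.08, and that of all tested genes 0.003. In these bulk cultures, fewer cells of a type and less RNA per cell cannot be told apart.

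Values are CPM, read counts scaled to a common library size after TMM normalisation, and the 6 libraries held 5383380 to 6244350 counts each. A gene with no read in a library may still have had up to 3 counts, or 0.480 to 0.557 CPM, by counting error alone. The 3 genes that did not pass the filter were Thrsp, Me1 and Fads3. Thrsp, a regulator of lipogenesis in liver and fat, had 0 counts in all 6 libraries. Acacb and Mlxipl were under the filter in control and passed it through the butyrate libraries, so they could only be seen to rise. Among the 963 tested genes under the filter in at least 1 control library 70.0% were called higher and 0 lower. Among the 27 lipid genes past the filter in every control library, 4 were higher and 11 lower, against 19.3% and 24.5% of the 10777 genes of that kind.

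**Figure D1:**
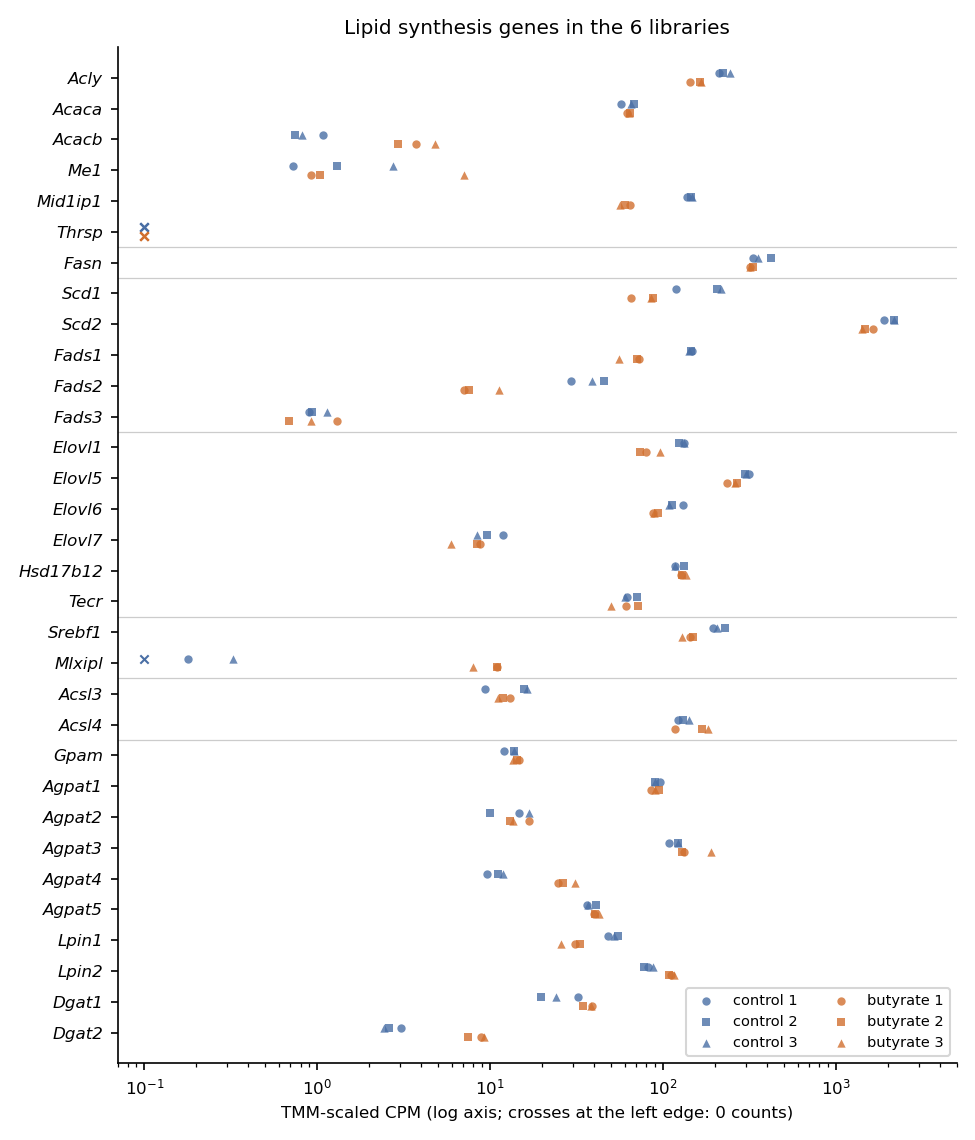
Level of each of the 32 genes (rows, grouped by role) in the 6 libraries, as TMM-scaled CPM on a log axis. Blue marks are control and orange marks butyrate libraries, with a shape for each replicate number, and crosses at the left edge stand for 0 counts. The blue and orange marks part for the desaturases Scd1, Scd2, Fads1 and Fads2, and Mlxipl goes from at most 0.324 CPM in control to at least 7.95 CPM.

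The start regions of 3 of the genes that fell and of the gene that rose most are shown to let the reader see which known elements stand there. Each window runs from 250 bases before to 50 after an annotated start (RefSeq, GRCm38.p6), and such windows were found for 26 of the 32 genes. None was found for Scd1, Scd2 and Fads1, which fell, for Dgat1 and Dgat2, which rose, or for Agpat5. Capitals mark matches, on either strand, to the CCAAT box, the E-box CACGTG that ChREBP and USF factors bind, the sterol element TCACNCCAC and the GC box GGGCGG. Fads2, Mid1ip1 and Elovl5 are examples, picked by no stated rule, from the 8 genes that fell and have a window. Mlxipl, the gene that rose most, has 2 windows. The coordinates are chr19:10101454-10101753 (minus strand) for Fads2, chrX:10717115-10717414 (plus) for Mid1ip1, chr9:77917115-77917414 (plus) for Elovl5, and chr5:135089640-135089939 and chr5:135106641-135106940 (plus) for Mlxipl.
Fads2: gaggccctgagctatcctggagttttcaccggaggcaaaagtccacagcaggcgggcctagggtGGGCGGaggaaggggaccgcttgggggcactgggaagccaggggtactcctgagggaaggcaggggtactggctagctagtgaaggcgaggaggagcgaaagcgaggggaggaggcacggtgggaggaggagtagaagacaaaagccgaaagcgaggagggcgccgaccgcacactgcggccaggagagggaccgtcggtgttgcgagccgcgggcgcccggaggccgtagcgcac
Mid1ip1: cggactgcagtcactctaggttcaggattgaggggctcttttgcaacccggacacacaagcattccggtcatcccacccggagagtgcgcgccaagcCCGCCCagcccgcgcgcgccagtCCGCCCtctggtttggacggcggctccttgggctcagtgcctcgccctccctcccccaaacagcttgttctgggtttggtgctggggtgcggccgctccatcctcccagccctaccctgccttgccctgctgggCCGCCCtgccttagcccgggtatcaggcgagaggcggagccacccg
Elovl5: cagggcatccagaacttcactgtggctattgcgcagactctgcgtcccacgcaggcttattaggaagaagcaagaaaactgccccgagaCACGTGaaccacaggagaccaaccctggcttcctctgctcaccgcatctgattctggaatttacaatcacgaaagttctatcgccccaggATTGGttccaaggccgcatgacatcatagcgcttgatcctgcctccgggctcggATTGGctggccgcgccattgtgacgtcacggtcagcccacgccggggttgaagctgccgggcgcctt
Mlxipl, upstream start: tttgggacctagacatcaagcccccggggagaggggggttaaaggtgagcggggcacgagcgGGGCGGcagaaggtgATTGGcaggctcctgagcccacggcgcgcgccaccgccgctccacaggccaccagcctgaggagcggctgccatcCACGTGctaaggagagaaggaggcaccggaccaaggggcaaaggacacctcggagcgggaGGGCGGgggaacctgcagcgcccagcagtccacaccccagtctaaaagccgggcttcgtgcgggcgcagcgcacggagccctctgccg
Mlxipl, downstream start: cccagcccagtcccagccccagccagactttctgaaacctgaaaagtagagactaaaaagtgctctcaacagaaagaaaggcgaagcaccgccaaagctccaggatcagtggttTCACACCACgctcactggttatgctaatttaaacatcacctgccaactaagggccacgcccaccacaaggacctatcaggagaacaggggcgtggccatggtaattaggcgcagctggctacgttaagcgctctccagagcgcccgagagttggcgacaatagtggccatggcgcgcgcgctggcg

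Fads2 and Mid1ip1 held the GC box alone of these elements, Elovl5 held the E-box and the CCAAT box, and the upstream window of Mlxipl held all but the sterol element. The CCAAT box stood in a window of 17 of the 26 genes, against 41.1% of 27025 genes with a window and 43.4% of the tested ones. Some genes have more than 1 window, and per window the shares were 51.4% of 35 and 38.1% for tested genes. Among genes with a window, 4 of 8 that fell, 4 of 4 that rose and 6 of 11 not called held this box. The E-box stood in 3 (Elovl5, Lpin2 and Mlxipl), against 8.09% of all and 12.0% of tested genes. Of the 8 genes that fell and have a window, Elovl5 alone held it (12.5%), and Elovl6 and Lpin1 held none of these elements. The sterol element was matched in 1, the downstream window of Mlxipl, against 1.44% of all genes. It was matched in 0 of the 8 genes that fell and have a window, too few genes to show a lack at that share. The GC box stood in 17, against 38.2% of all and 69.8% of tested genes. A match is only a match of letters in this window.

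The first steps moved unevenly. Gene positions are RefSeq spans on GRCm38.p6. Acly (Entrez gene 104112, chromosome 11, 100476352 to 100528000), which encodes ATP citrate lyase, stood at 210.4, 221 and 243 CPM in control and at 143, 163 and 166 CPM with butyrate. All 3 butyrate libraries lay below all 3 controls, and the gene fell by 0.52 on the log2 scale (SE 0.093, adjusted p = 0.00217), or 1.43-fold. Acaca, the cytosolic acetyl-CoA carboxylase that feeds synthesis, had 57.4, 68.3 and 65.5 CPM in control and 61.4, 64.3 and 63.6 CPM with butyrate. Its groups overlapped (log2 fold change of -0.01, 95% interval -0.22 to 0.19, adjusted p = 0.908). Acacb, the mitochondrial carboxylase whose product restrains fatty acid oxidation, was scarce, at 15 counts in the 3 control libraries and 63 in the 3 with butyrate. The ratio of these counts per library total was 4.36 (exact 95% interval 2.45 to 8.25, counting error only), and edgeR gave a log2 fold change of 2.09 (SE 0.351, adjusted p = 0.00153).

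Mid1ip1 (Entrez gene 68041, chromosome X, 10717365 to 10719702) encodes a small protein that drives acetyl-CoA carboxylase to polymerise and gain activity. It fell more than the enzyme genes Acly, Acaca and Fasn of these first steps. It stood at 137, 144 and 147 CPM in control and at 64.4, 60.3 and 56.5 CPM with butyrate. The groups lay far apart for their spread, and the log2 fold change was -1.24 (SE 0.083, adjusted p = 3.22e-05), a 2.36-fold fall. Me1, the cytosolic malic enzyme that yields NADPH, had 0.720, 1.30 and 2.76 CPM in control and 0.925, 1.03 and 7.02 CPM with butyrate, most of it in butyrate replicate 3. Fasn, the synthase itself (Entrez gene 14104, chromosome 11, 120805958 to 120825166), had 333, 420.5 and 355 CPM in control and 319, 329.6 and 317 CPM with butyrate. Every butyrate library was below every control library, but the fall did not pass the test (log2 fold change of -0.20, 95% interval -0.42 to 0.03, adjusted p = 0.135).

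All 4 tested desaturase genes fell (median log2 fold change -1.15), against 22.5% of all tested genes. Fads2 had the steepest fall of the 29 tested genes. Fads2, which starts the conversion of linoleic and linolenic acid into longer polyunsaturated fatty acids, lies on chromosome 19 (Entrez gene 56473, 10062765 to 10101503). It had 29.3, 45.3 and 38.8 CPM in control and 7.03, 7.57 and 11.3 CPM with butyrate. The highest butyrate library was well under the lowest control, and the log2 fold change was -2.13 (SE 0.218, adjusted p = 0.000141), a 4.38-fold fall. Fads1, which acts later in the same conversion and lies beside it (Entrez gene 76267, 10182877 to 10196874), had 147, 145 and 140.2 CPM in control. With butyrate it had 72.9, 70.5 and 55.3 CPM, and the log2 fold change was -1.12 (SE 0.109, adjusted p = 0.000117). Fads3, the other gene of the cluster, stood at 0.688 to 1.29 CPM in all 6 libraries.

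Scd1 and Scd2 encode stearoyl-CoA desaturases, which make monounsaturated from saturated chains, and lie close together on chromosome 19 (44293676 to 44407709). Scd4 lies between them, with 27 counts in the control and 16 in the butyrate libraries, and did not pass the filter. Scd2 was the most abundant of the 32 genes per length in both groups. It had 1898, 2167 and 2161 CPM in control and 1638, 1474 and 1408 CPM with butyrate, a log2 fold change of -0.46 (SE 0.1, adjusted p = 0.0054). Scd1 had 118, 203 and 215 CPM in control and 65.1, 87.9 and 84.6 CPM with butyrate (log2 fold change of -1.18, SE 0.215, adjusted p = 0.00233). Replicate 1 was the lowest for Scd1 in both groups, and the groups still did not overlap. The labels do not say how reads that match both paralogs were counted, which leaves the split between them uncertain.

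Of the 6 elongation genes 3 fell and 0 rose. Elovl1, which extends saturated chains to very long ones (Entrez gene 54325, chromosome 4, 118426874 to 118432953), had 133, 123 and 133 CPM in control and 79.2, 73.6 and 95.4 CPM with butyrate. That is a log2 fold change of -0.65 (SE 0.106, adjusted p = 0.0013), with no overlap. Elovl6, which extends palmitate, had 131, 113 and 107 CPM in control and 86.9, 93.7 and 89.1 CPM with butyrate (log2 fold change of -0.38, SE 0.094, adjusted p = 0.0106). Elovl5, which extends the products of Fads2, had 312, 299 and 302 CPM in control and 232, 269 and 262 CPM with butyrate. Its log2 fold change of -0.26 passed narrowly (SE 0.084, adjusted p = 0.0318), and the call was lost without control replicate 1 (-0.23, adjusted p = 0.107), 2 (-0.27, 0.0807) or 3 (-0.26, 0.0874), without butyrate replicate 1 (-0.20, 0.0795) and with upper quartile scaling (-0.18, 0.117).

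The other 3 elongation genes were not called. Elovl7, an elongase at a low level, had 8.44 to 11.9 CPM in control and 5.91 to 8.69 CPM with butyrate (95% interval of the log2 fold change -0.86 to 0.11). Hsd17b12 and Tecr encode reductases that every elongation cycle uses, whichever elongase starts it. Hsd17b12 had 116 to 133 CPM in control and 126 to 135 CPM with butyrate (95% interval -0.10 to 0.28), and Tecr had 60.2 to 70.9 and 49.7 to 71.5 CPM (-0.39 to 0.23).

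The transcription factor genes of the pathway moved in opposite directions. Srebf1, which encodes SREBP-1 (Entrez gene 20787, chromosome 11, 60199084 to 60224186), had 194, 228 and 206 CPM in control and 144, 149.8 and 128 CPM with butyrate. The log2 fold change came to -0.58 (SE 0.096, adjusted p = 0.00143), and no butyrate library reached the lowest control. The table counts the gene as a whole, so the transcripts for SREBP-1a and SREBP-1c, which start at different exons, cannot be told apart. Mlxipl, which encodes ChREBP, the factor that turns on lipogenic genes when glucose is plentiful (Entrez gene 58805, chromosome 5, 135089890 to 135139768), was almost silent in control. It had 1, 0 and 2 counts in the control libraries and 59, 64 and 43 in the butyrate libraries (0.180, 0 and 0.324 against 10.9, 11 and 7.95 CPM). The ratio of summed counts per library total was 57.4 (exact 95% interval 19.3 to 281, for counting error alone). The fitted log2 fold change of 5.66 (SE 0.459, adjusted p = 5.57e-05) hangs on those few control counts and was 6.46 without control replicate 3 and 5.17 without control replicate 2. Counts per gene do not tell which of the annotated starts of Mlxipl was used.

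Acyl-CoA synthetases activate free fatty acids for use, and neither of the 2 genes was called. Acsl4, which prefers arachidonic acid, had 122, 131 and 141 CPM in control and 118, 167 and 181 CPM with butyrate. Butyrate replicate 1 lay below all controls and the other two above them (log2 fold change of 0.24, adjusted p = 0.218), and without that library the gene was called higher (0.40, adjusted p = 0.0106). Acsl3, which supplies growing lipid droplets, had 9.36 to 16.4 CPM in control and 11.1 to 12.9 CPM with butyrate (95% interval of the log2 fold change -0.70 to 0.28).

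Glycerolipid acylation and its later steps gave 4 genes that rose and 1 that fell, among 10 tested. Gpam, the mitochondrial acyltransferase that places the first chain on glycerol 3-phosphate, was not called (12.1 to 13.8 CPM in control, 13.5 to 14.6 CPM with butyrate, 95% interval -0.21 to 0.40). The AGPAT genes encode acyltransferases that place the second chain and give phosphatidic acid or related lipids. Agpat4 (Entrez gene 68262, chromosome 17, 12118485 to 12219649) had 9.54, 11.1 and 11.8 CPM in control and 24.6, 26.3 and 30.9 CPM with butyrate. The log2 fold change came to 1.33 (SE 0.144, adjusted p = 0.000185), a 2.51-fold rise, and the log2 ratio within pairs of same-numbered libraries was 1.22 to 1.36 (0.25 CPM added to each value).

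Agpat3 had 109, 121 and 122 CPM in control and 133, 128 and 189.8 CPM with butyrate. Its groups did not overlap, but butyrate replicate 3 stood apart and the gene was not called (log2 fold change of 0.35, adjusted p = 0.0789). With the replicate number as a block it was called higher (0.34, adjusted p = 0.0241). Agpat1, Agpat2 and Agpat5 were not called, with log2 fold changes of -0.03, 0.05 and 0.11 and 95% intervals of -0.21 to 0.16, -0.42 to 0.52 and -0.11 to 0.32.

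The lipins, phosphatases that turn phosphatidic acid into diacylglycerol, moved against each other. Lpin1 (Entrez gene 14245, chromosome 12, 16535669 to 16653903) had 47.9, 54.5 and 52.1 CPM in control and 30.9, 32.8 and 25.5 CPM with butyrate (log2 fold change of -0.79, SE 0.117, adjusted p = 0.000786). Lpin2 (Entrez gene 64898, chromosome 17, 71183532 to 71249818) had 81.7, 77.9 and 87.9 CPM in control and 111, 108 and 116 CPM with butyrate (log2 fold change of 0.44, SE 0.081, adjusted p = 0.00253). Neither gene's groups overlapped.

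Both genes of the last step, in which diacylglycerol acyltransferases give triacylglycerol, rose. Dgat2 (Entrez gene 67800, chromosome 7, 99153663 to 99182713) had 3.06, 2.60 and 2.43 CPM in control and 8.88, 7.39 and 9.24 CPM with butyrate, a log2 fold change of 1.65 (SE 0.223, adjusted p = 0.000521). Dgat1 (Entrez gene 13350, chromosome 15, 76502012 to 76512021) had 32.04, 19.7 and 24.0 CPM in control and 38.8, 34.4 and 38.1 CPM with butyrate (log2 fold change of 0.55, SE 0.166, adjusted p = 0.0236). The call of Dgat1 was lost without control replicate 2 (0.41, adjusted p = 0.0679) or 3 (0.52, 0.0683) and without butyrate replicate 1 (0.52, 0.0566) or 3 (0.53, 0.0591).

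**Figure D2:**
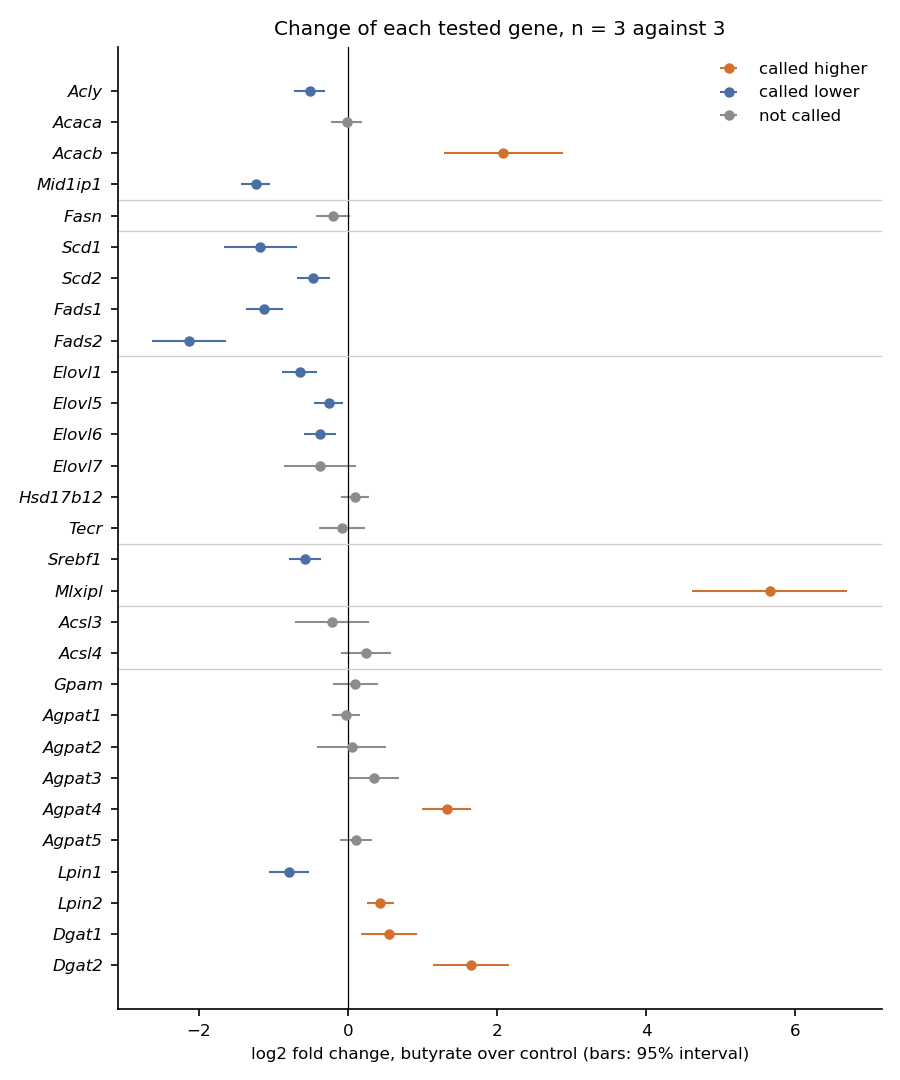
Log2 fold change of butyrate over control for the 29 tested genes (rows, grouped by role), with points for the edgeR estimate and bars for its 95% interval (n = 3 against 3). Blue points are called lower, orange points higher and grey points not called; the desaturases lie left of 0 and Agpat4, Lpin2, Dgat1 and Dgat2 right of it.

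**Figure D3:**
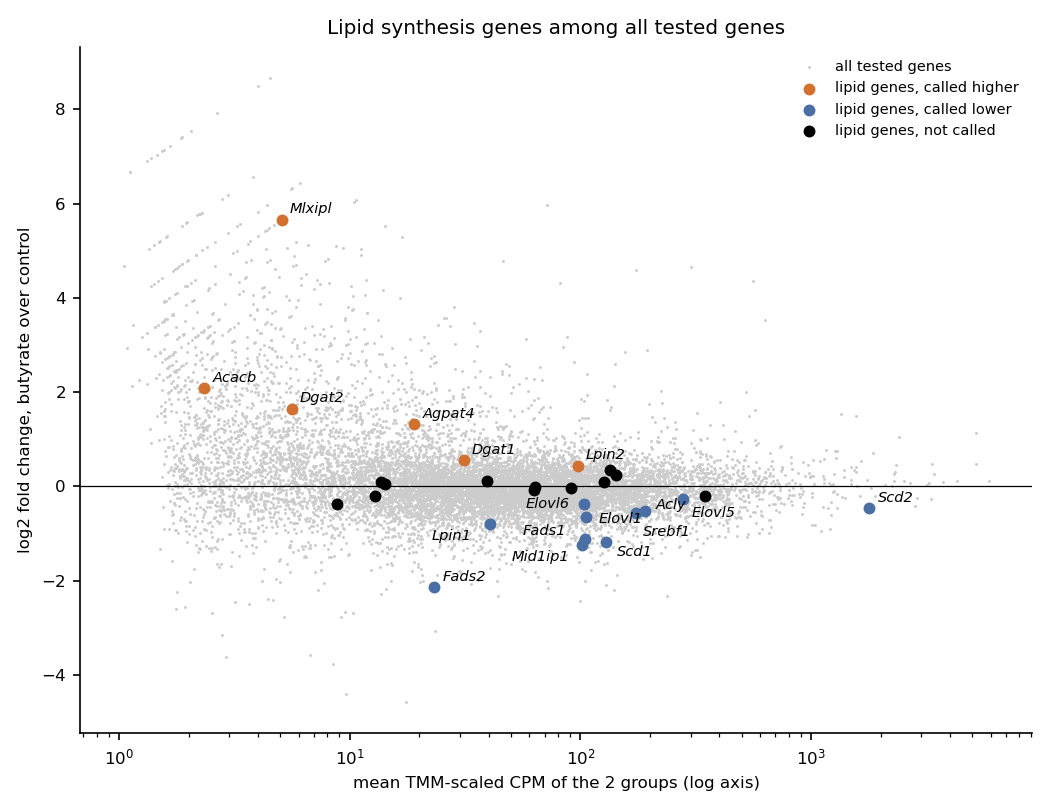
Log2 fold change (vertical) against the mean TMM-scaled CPM of both groups (horizontal, log axis) for all 11740 tested genes in grey and the 29 lipid genes in colour, with the 17 called genes named. Fads2 lies at the lower edge of the cloud at its level, and Acacb, Dgat2 and Mlxipl lie at low levels, where many genes of the whole table have large positive values.

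The groups did not overlap for any of the 17 called genes, nor for Fasn (lower) and Agpat3 (higher), which were not called. Any pairing of libraries gives each of these genes the same direction throughout, so their same-numbered pairs add no support. Elovl7, which was not called and whose groups overlapped, was lower in 3 of 3 same-numbered pairs. The other 9 uncalled genes had both signs among their pairs.

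Dividing CPM by the length of each gene's exons allows members of a family to be compared, and these shares are given as a description with no test. Scd2 held 91.3% ± 1.88 of the level of Scd1 and Scd2 in control and 94.4% ± 1.17 with butyrate (SD, n = 3), while the summed level of the pair went from 416 ± 38.8 to 292 ± 19.4 CPM per kb. Fads2 held 27.4% ± 4.44 of the Fads level in control and 16.03% ± 5.71 with butyrate, with overlap between the groups, and the sum went from 41.7 ± 2.30 to 16.6 ± 1.31 CPM per kb. The carboxylase level stayed mostly Acaca, with Acacb at 2.42% ± 0.709 in control and 9.64% ± 2.18 with butyrate.

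Families of the glycerolipid branch changed in make-up. Lpin1 went from 44.1% ± 2.47 to 25.2% ± 3.05 of the lipin level (SD, n = 3), while the sum of both lipins was 12.1 ± 0.473 CPM per kb in control and 12.2 ± 0.0902 with butyrate. Agpat4 went from 6.73% ± 0.708 to 14.4% ± 0.595 of the AGPAT level, whose sum was 59.6 ± 1.65 and 69.9 ± 5.48 CPM per kb. Dgat2 went from 9.78% ± 1.57 to 18.5% ± 0.913 of the DGAT level, while the sum went from 9.13 ± 2.14 to 14.9 ± 1.08 CPM per kb. Per coding length in place of exon length, the shares of Acacb (1.32% and 5.46%) and Agpat4 (3.51% and 7.58%) were smaller, with butyrate again the larger. Per exon length the 4 elongases kept their order in all 6 libraries, with Elovl5 first at 55.9% ± 0.674 and 60.9% ± 2.29, then Elovl1, Elovl6 and Elovl7. Per coding length Elovl6 stood above Elovl1 in control replicate 1 (23.9% against 23.2%) and in butyrate replicates 1 (23.0% against 20.01%) and 2 (22.7% against 17.1%).

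**Figure D4:**
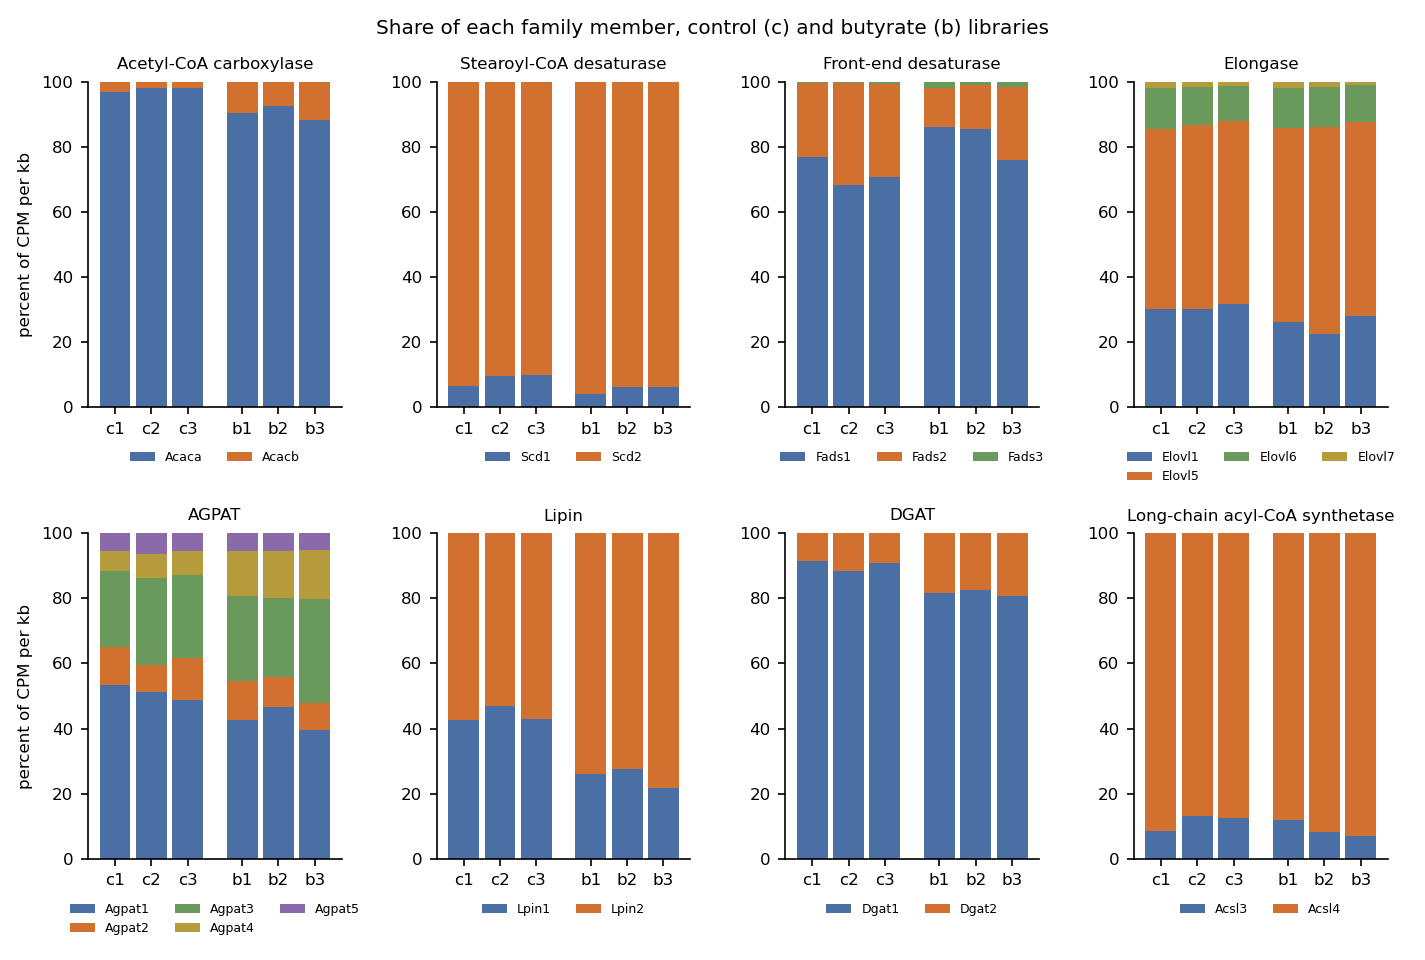
Share of each member in the per-length level (CPM per kb of exon) of 8 gene families, as stacked bars for control libraries c1 to c3 and butyrate libraries b1 to b3. Lpin2, Agpat4 and Dgat2 take larger parts of their bars in every butyrate library than in any control and Lpin1 a smaller one, the Fads2 parts overlap (22.5% in control replicate 1, 22.6% in butyrate replicate 3), and Scd2 fills at least 90.0% of every bar of its pair.

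Genes beside the 32 in the same pathways were taken as 7 further lists, to be read beside the 23.5% higher and 22.5% lower of all tested genes. Of 10 genes that supply acetyl-CoA and NADPH, 6 were lower and 2 higher (median log2 fold change -0.39, against 0.003 for all tested genes). Acss1 and Acss2, which make acetyl-CoA from acetate in mitochondria and in the cytosol, went from 58.3 ± 10.3 to 22.9 ± 2.70 CPM and from 31.0 ± 1.48 to 15.9 ± 2.46 CPM (SD, n = 3). Nadk, the NAD kinase, and Idh2 rose by log2 fold changes of 0.32 and 0.60 (adjusted p = 0.0261 and 0.0335). Both calls were lost without control replicate 1 (adjusted p = 0.0849 for Nadk and 0.083 for Idh2), control replicate 2 (0.0647 and 0.0979) or butyrate replicate 2 (0.0726 and 0.0793), that of Nadk also without butyrate replicate 3 (0.0794) and that of Idh2 without butyrate replicate 1 (0.0885).

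Among 14 tested regulators of SREBP and ChREBP, 6 were lower and 2 higher (median -0.12). Insig1, which holds SREBP in the endoplasmic reticulum and is itself an SREBP target, went from 153 ± 16.3 to 66.9 ± 12.0 CPM, and Usf2, an E-box factor, from 63.3 ± 8.31 to 31.98 ± 4.54 CPM (SD, n = 3). Pparg, a nuclear receptor of the fat cell programme, went from 10.5 ± 0.513 to 43.3 ± 13.6 CPM (log2 fold change of 2.04, SE 0.221, adjusted p = 0.000185). Mlxip, which encodes MondoA, a relative of ChREBP, rose by a log2 fold change of 0.30 (adjusted p = 0.0192), a call lost without control replicate 2 (0.0723) or 3 (0.0622) or butyrate replicate 2 (0.0606).

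Of the other elongation and desaturation genes, 3 of 5 tested were higher and 0 lower, with 6 of the list's 11 under the filter. Hacd3, a dehydratase of the elongation cycle, went from 100.2 ± 3.60 to 153 ± 6.63 CPM (SD, n = 3), and Fads6 had 3 counts in all controls together and 50 with butyrate. Fads6 and Elovl4 (13 and 43 counts), the third gene called, were under the filter in control, so they could only be called higher, which leaves Hacd3 of the 3. For fatty acid uptake and activation, 2 of 8 tested genes were higher and 1 lower. Slc27a1, a fatty acid transporter, went from 6.75 ± 0.768 to 30.5 ± 2.89 CPM, and Acsl5 from 165 ± 22.7 to 80.4 ± 4.64 CPM, while Acsl1 rose by a log2 fold change of 0.41 (adjusted p = 0.0333). The call of Acsl1 was lost with no filter (0.0674), with DESeq2 (0.128) and without any 1 of the libraries other than butyrate replicate 1 (0.0582 to 0.106).

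Among the remaining glycerolipid acylation genes, 3 of 14 tested were higher (21.4%) and 1 lower (7.14%). Plpp2, a lipid phosphate phosphatase, went from 7.74 ± 1.08 to 23.5 ± 1.65 CPM (SD, n = 3), Gpat3, a glycerol 3-phosphate acyltransferase of the endoplasmic reticulum, from 2.94 ± 0.443 to 7.73 ± 1.45 CPM, and Mboat7 fell by 0.68 on the log2 scale. Plpp1, the third gene called higher (33 and 81 counts), was under the filter in at least 1 control library. Elovl4 and Plpp1 are named after their values were seen. Of 18 tested genes that attach phospholipid head groups, 5 were higher and 4 lower, with Pcyt1a of the phosphatidylcholine route at a log2 fold change of 0.72 and Pcyt2 of the phosphatidylethanolamine route at -0.80. Pgs1 rose by 0.52 and Ptpmt1, which follows it on the way to cardiolipin, fell by 0.65 on the log2 scale. Of 7 tested lipid droplet genes, 3 were higher and 1 lower. The coat protein gene Plin3 went from 74.4 ± 7.77 to 124 ± 15.9 CPM, Hilpda, an inhibitor of lipolysis, from 34.1 ± 6.16 to 76.9 ± 21.0 CPM, and Soat2, which makes cholesterol esters, from 21.2 ± 3.13 to 12.6 ± 0.488 CPM. Over the 7 lists, 20 of 76 tested genes were higher and 19 lower, shares (26.3% and 25%) near those of all tested genes.

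**Figure D5:**
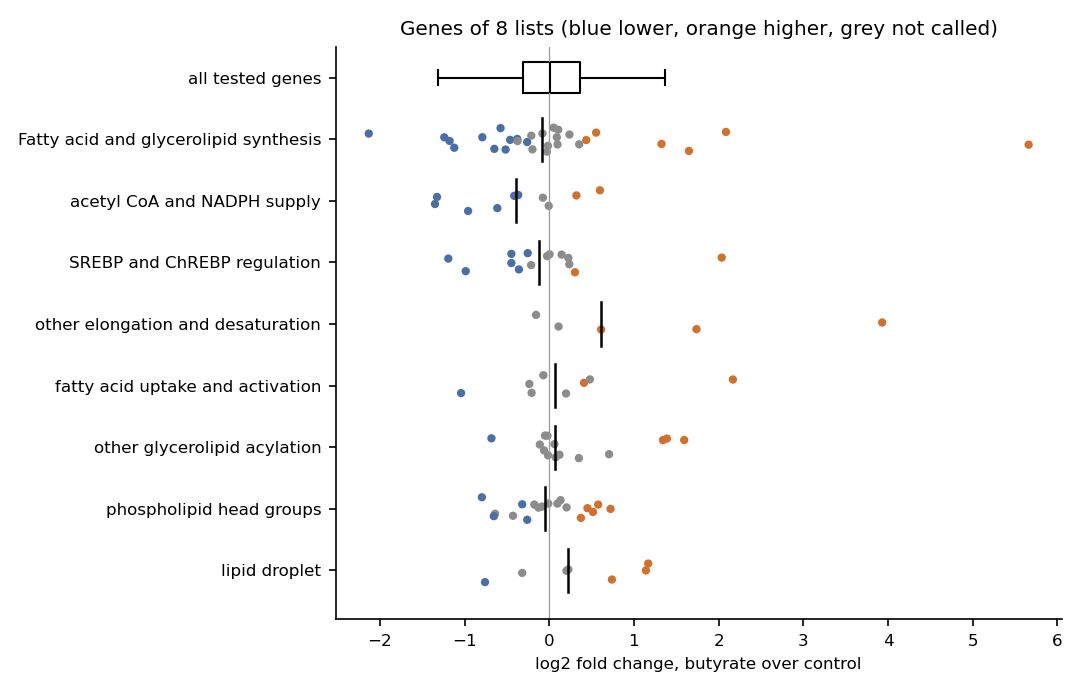
Log2 fold change of butyrate over control for the tested genes of the 32 and of 7 other lipid lists (points, blue lower, orange higher, grey not called; black bars are medians), below a box with median, quartiles and whiskers of 1.5 quartile ranges for all tested genes. Acetyl-CoA and NADPH supply has its median at -0.39 and lipid droplet genes at 0.23.

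Of the tested neighbours of the Fads cluster, Fen1 and Tmem258 were not called and Myrf was higher. Within 50000 bases of the cluster (chromosome 19, 10040855 to 10196874), Fen1, a DNA repair nuclease gene that starts at 10199132, went from 326 ± 25.7 to 352 ± 20.7 CPM (SD, n = 3) and was not called (edgeR adjusted p = 0.357). Myrf (10208271 to 10240777), a membrane-bound transcription factor gene, had 3 counts in all controls together and 153 with butyrate, and like Mlxipl it passed the filter through the butyrate libraries. Fen1, Tmem258 and Myrf were chosen after their values were seen.

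The spans of 8 of the 32 genes overlap another counted gene, and the labels do not say that counting used the strand. The span of Elovl1 (to 118432953) overlaps by its end that of Cdc20 (from 118432901), a mitosis gene. Cdc20 went from 196 ± 15.2 to 63.4 ± 3.95 CPM (SD, n = 3). The span of Srebf1 (from 60199084) overlaps by its end that of Rai1 (to 60199197), which went from 197 ± 4.48 to 143 ± 8.26 CPM. In both cases the neighbour fell in the same direction, and its part in the value of the lipid gene was not tested. Acaca overlaps Tada2a, which went from 17.7 ± 1.30 to 30.8 ± 4.58 CPM, and Acsl3 overlaps Utp14b, at 17.0 ± 2.53 and 14.7 ± 1.49 CPM.

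Markers of the labelled cell type were present in every library, and the summed level of 10 T cell genes, led by Trac and Lck, was 4685 to 5160.5 CPM in control and 4177 to 5241.5 CPM with butyrate. Of these 10, 3 were lower and 0 higher, and their median log2 fold change was -0.495 (all tested genes 0.003). Trac, the largest part of the sum, went from 2063 ± 362 to 2552 ± 593 CPM (SD, n = 3) and was not called. The similar sums therefore do not show that the other T cell markers were steady. Of the listed markers of fat and stromal cells, all but Pecam1 were nearly absent. Adipoq, Lep, Plin1, Cfd, Col1a2 and Cdh5 had 0 counts in all libraries, and Col1a1 and Fabp4 had at most 2 in any library. The sum of this list (47.5 to 69.7 CPM in control, 43.0 to 54.2 CPM with butyrate) was almost all Pecam1. Summed levels of macrophage and dendritic cell markers did not overlap between groups (43.4 to 95.4 CPM in control, 151 to 160.2 CPM with butyrate, 4 of 7 tested higher), led by Itgam and Lyz2. The 4 were Itgam (4.08 ± 0.682 to 44.1 ± 9.503 CPM, SD, n = 3), H2-Ab1 (8.95 ± 0.281 to 38.3 ± 5.67), Cd74 (6.01 ± 2.17 to 18.8 ± 4.20) and H2-Aa (3.23 ± 1.24 to 8.61 ± 3.61), the last 3 named after their values were seen, and Lyz2 was not called. Among the others, Cd209a and Siglech had 0 counts throughout and Csf1r and Adgre1 stood at no more than 1.95 CPM in any library.

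Sums of the other marker lists were small. B cell markers, led by Cd79b and Jchain, summed to 28.4 to 31.0 CPM in control and 42.3 to 49.6 CPM with butyrate (2 of 4 tested called higher, Pax5 at 0 counts). NK cell markers, led by Klrb1c and Klre1, summed to 4.50 to 7.95 and 14.4 to 21.1 CPM (2 of 2 tested called higher). Markers of CD4 T cells, led by Zbtb7b and Cd40lg, summed to 74.0 to 83.2 and 121 to 130.2 CPM (2 of 3 tested called higher). Granulocyte and mast cell markers, led by Cpa3 and Siglecf, summed to 3.89 to 16.2 and 14.8 to 41.8 CPM (2 of 3 tested called higher, Ltf and Camp at 0 counts). Erythroid and platelet markers, led by Ppbp and Hbb-bs, summed to 1.48 to 8.27 and 8.60 to 72.1 CPM (1 of 2 tested called higher). Of the 9 genes called in these 5 lists, 7 were under the filter in at least 1 control library, where 0 genes of the whole table were called lower (Cd22, Sdc1, Klre1, Cd4, Cxcr2, Siglecf and Epor), which leaves Klrb1c and Zbtb7b; those outside the leading pair of a list are named after their values were seen. For the granulocyte and erythroid lists the highest sum of each group was in replicate 3, which also held the highest level of Me1. The part of such cells in the genes that rose from low levels, Mlxipl, Acacb, Dgat2 and Agpat4, was not tested.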

How the data were processed

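RNA was measured in 3 control and 3 butyrate libraries, each made from 1 µg of total RNA with an Illumina TruSeq kit per the labels. The authors deposited raw read counts per gene, under Entrez numbers. The submitters' processing notes name the build mm10 and, with no version, edgeR, Subread, featureCounts, Picard, TopHat and CASAVA. Settings, strand use included: not given in the sources used here. Columns were matched to samples by the label that names them. Of the gene numbers, 25275 were named from RefSeq (GRCm38.p6), 18 from GENCODE and 1886 had no name (0.961% to 1.20% of counts) and stayed in the tests.

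Butyrate was compared with control over the whole table in edgeR (4.0.16, under R 4.3.3), by its quasi-likelihood test on TMM-scaled counts, with the filterByExpr filter (10 counts at the median library size, 1.82 CPM, in 3 libraries) and Benjamini-Hochberg adjustment over 11740 genes. Group values are means ± SD of TMM-scaled CPM. Standard errors are the log2 fold change divided by the root of F, and the 95% intervals use them. Exon lengths are unions of GENCODE M21 exons. The design had assumed RefSeq transcript lengths, and the lengths used in their place are those of GENCODE.

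The 32 genes and the lists were chosen with earlier results of these data known. All 32 genes are described, and of each other pathway list up to 2 called genes per direction with the smallest p. Alternatives were other scalings (upper quartile, RLE, total count), no filter, a filter of 5 CPM in 3 libraries, DESeq2 (1.42.0), limma voom (limma 3.58.1), robust edgeR, glmTreat against a fold of 1.5, the replicate number as a block, coding length and each library left out in turn. Control and butyrate libraries share replicate numbers in their titles. Deviations from the group means correlated by 0.362, 0.197 and 0.353 for same-numbered libraries and by -0.301 to -0.075 for others. Such deviations cancel out within each group, so part of this contrast is built in. No label ties a number to a mouse, culture or day, so whether the numbers pair the samples was not settled. The main fit and its standard errors ignore any pairing, and the block by replicate number is an alternative. Replicate libraries differed beyond counting noise (chi-square divided by its degrees of freedom, 5.43 to 10.6). Since the origin of replicates is not stated, p-values reflect only the spread among these libraries, which could be technical.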

Additional observations from a re-analysis of the deposited data

How the results depend on the processing

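The 17 called genes kept their direction under all 16 alternatives (15 for Acacb, which the stricter filter removed). Their groups did not overlap, so leaving out a library could hardly turn a sign, and the kept direction adds little support. Against a fold of 1.5 (glmTreat), 4 lipid genes stayed lower (Mid1ip1, Scd1, Fads1 and Fads2) and 4 higher (Acacb, Mlxipl, Agpat4 and Dgat2). The calls of Acly, Scd2, Elovl1, Elovl5, Elovl6, Srebf1, Lpin1, Lpin2 and Dgat1 were lost in that test. It called 14 genes of the other lists and 1593 of all genes. Leaving out 1 library at a time gave 10 to 11 lipid genes lower, 5 to 7 higher, 32 to 36 called in the other lists and 4509 to 5185 of all genes. With the replicate block 11 were lower, 7 higher and 6315 of all genes called. Among the lipid genes it changed the call of Agpat3 only. Upper quartile scaling moved the higher share of all calls from 51.1% to 61.8%, and the test against a fold of 1.5 to 69.3%.

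Changes of sign touched uncalled genes near 0. Acaca (-0.01) was at 0.07 with upper quartile scaling, 0.01 with the stricter filter, and 0.04, 0.01 and 0.0 without control replicate 2, control replicate 3 and butyrate replicate 1. Tecr (-0.08) was at 0.0 with upper quartile scaling and 0.05 without butyrate replicate 3. Agpat1 (-0.03) was at 0.06 with upper quartile scaling, 0.0 with the stricter filter, and 0.02 without control replicate 1 or butyrate replicate 1. Agpat2 (0.05) was at -0.13 without control replicate 2 and -0.07 without butyrate replicate 1. With 1 library left out, the log2 fold change ran from -0.08 to 0.04 for Acaca, -0.22 to 0.05 for Tecr, -0.07 to 0.02 for Agpat1 and -0.13 to 0.22 for Agpat2. The cause was not tested. Agpat3 was also called with upper quartile scaling (0.44, adjusted p = 0.0398) and without butyrate replicate 2 (0.46, 0.0489).

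Per coding length in place of exon length, control and butyrate shares were 1.32% and 5.46% for Acacb, 20.7% and 11.7% for Fads2, 3.51% and 7.58% for Agpat4, 38.6% and 21.1% for Lpin1 and 12.3% and 22.7% for Dgat2. At this depth Thrsp, Me1 and Fads3 could not be tested.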
